A study of Mus musculus with 28 samples.

Results

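The BCL2 family was followed here through 10 genes taken by symbol: the survival genes Bcl2, Bcl2l1 and Mcl1, the effectors Bax and Bak1, and the BH3-only genes Bcl2l11, Bid, Bad, Pmaip1 and Bbc3. A gene was read from the probe set that names it alone and has the highest mean over all arrays, which gave 9 of the 10 genes, out of 18194 genes with such a probe set. Bax was not analysed here. Spleen RNA was hybridised to 28 one-colour mouse arrays in 2 experiments, ABAIMMUN05 and ABAIMMUN06, which were normalised separately, so levels are set against each other only within an experiment. Mice ate a diet supplemented with abscisic acid (ABA, a plant hormone) or a control diet (CON), and were challenged with lipopolysaccharide (LPS, a bacterial cell wall component that triggers inflammation) or not. All mice carried the floxed Pparg allele (PPAR g flfl). PPARg-null mice also carried MMTV-Cre, so the recombinase is made only where the MMTV promoter is active, and the labels describe the loss as one of epithelial and immune cells. Wild-type mice were the floxed mice without Cre. ABAIMMUN05 held wild-type mice only, with 4 ABA LPS, 4 CON LPS, 2 ABA no LPS and 2 CON no LPS arrays. ABAIMMUN06 held 2 arrays in each of 8 groups, null and wild-type, ABA and CON, LPS and no LPS. The labels give no age, dose or time after LPS, and do not say that replicates were separate animals, so p-values measure the spread between these samples only.

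BCL2 family proteins set whether mitochondria release cytochrome c and start the caspase cascade. BCL2, BCL-XL (from Bcl2l1) and MCL1 hold the effectors BAX and BAK in check, and BH3-only proteins such as BIM (Bcl2l11), NOXA (Pmaip1), PUMA (Bbc3), BID and BAD bind the survival proteins or activate the effectors. In the spleen the family is known for the turnover of lymphocytes and neutrophils, and BCL-XL for the survival of erythroid precursors.

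Each value is log2 expression as deposited. The lowest value of an experiment, 2.29 in ABAIMMUN05 and 2.24 in ABAIMMUN06, is a floor given to probe sets without signal. Some values above it also repeat. Bcl2l1 read 4.67 on 7 ABAIMMUN05 arrays, and Bad 5.722 on 3 and 5.728 on 2 ABAIMMUN06 arrays. Whether such repeats carry signal was not tested. Over all probe sets, arrays of the same experiment had pairwise correlations of 0.942 to 0.997, and arrays of different experiments 0.769 to 0.837. Precision is limited by how many arrays a group holds. B cell and T cell markers, which spleen should hold, had list means of 7.90 to 10.1 and 6.60 to 8.77 across the arrays. The targeted gene Pparg averaged 2.45 to 2.89 in null mice and 2.38 to 2.80 in wild-type mice of ABAIMMUN06, close to the floor in both genotypes. Where its probe set lies relative to the floxed exons was not known, so it checks no genotype label. The Gapdh control probe sets differed, 3′ minus 5′, by 3.94 to 4.81 in ABAIMMUN05 and by 0.04 to 3.22 (median 0.41) in ABAIMMUN06. Those of Actb ordered the experiments the other way, at 0.43 to 0.78 (median 0.62) and 0.61 to 2.93 (median 1.04). Null ABA LPS replicate 1 held the highest ABAIMMUN06 value for both controls, 3.22 and 2.93. The next highest Gapdh value of ABAIMMUN06 was 0.77.

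The starts of the 2 genes from opposite sides of the family that rose with LPS in wild-type mice, and that the promoter table gives from their outermost start, are shown as the 250 bases before the start (RefSeq, GRCm38.p6), read 5′ to 3′ on the gene's own strand. Bcl2 lies on the minus strand of chromosome 1, with this window at chr1:106714291-106714540, and Bcl2l11 on the plus strand of chromosome 2, with its window at chr2:128125788-128126037.
Bcl2: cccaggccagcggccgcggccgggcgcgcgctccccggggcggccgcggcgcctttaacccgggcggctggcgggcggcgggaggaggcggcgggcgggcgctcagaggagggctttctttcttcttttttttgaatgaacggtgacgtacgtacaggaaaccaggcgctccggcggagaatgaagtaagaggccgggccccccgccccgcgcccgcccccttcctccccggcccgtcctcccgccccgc
Bcl2l11: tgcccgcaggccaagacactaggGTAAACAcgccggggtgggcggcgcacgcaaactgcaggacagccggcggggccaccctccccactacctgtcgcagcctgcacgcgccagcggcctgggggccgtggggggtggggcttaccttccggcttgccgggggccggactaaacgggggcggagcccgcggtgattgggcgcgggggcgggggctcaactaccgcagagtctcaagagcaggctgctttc
Both windows are rich in G and C, at 74.8% for Bcl2 and 72.0% for Bcl2l11. Capitals mark the letters GTAAACA of a forkhead (FOXO) motif, whose first base lies 227 bases before the Bcl2l11 start. These letters occur, on either strand, in 3.17% of the 32851 promoter windows of the same length. The other motifs searched on both strands were GGGA, then any 4 bases, then CC for NF-kB (17.6% of windows), TTCNNNGAA for STAT (7.02%) and GAAA, then any 2 bases, then GAAA for IRF (2.98%), and neither window held their letters. A match describes letters and no binding site, and the lack of one says nothing of the factor.

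In wild-type mice LPS raised 3 of the 5 BH3-only genes and 1 of the 3 survival genes, and the difference between these classes was not tested. Over both experiments and with the diets averaged, Pmaip1, Bcl2l11 and Bid rose 3.14-fold, 2.56-fold and 1.96-fold, and the survival gene Bcl2 rose 1.65-fold. Thus 4 of the 9 measured members rose and 0 fell (limma, Benjamini-Hochberg adjusted p under 0.05), where 30.9% of 13459 tested genes were called in either direction, 16.7% higher and 14.1% lower. With 9 genes, a count of 4 does not by itself set the family apart from all genes. The members' median change was 0.35 on the log2 scale, against -0.00 over all tested genes. Centring each array on its median gave 2015 calls higher and 2612 lower over all genes, in place of 2252 and 1903, and left the 4 member calls in place.

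**Figure D1:**
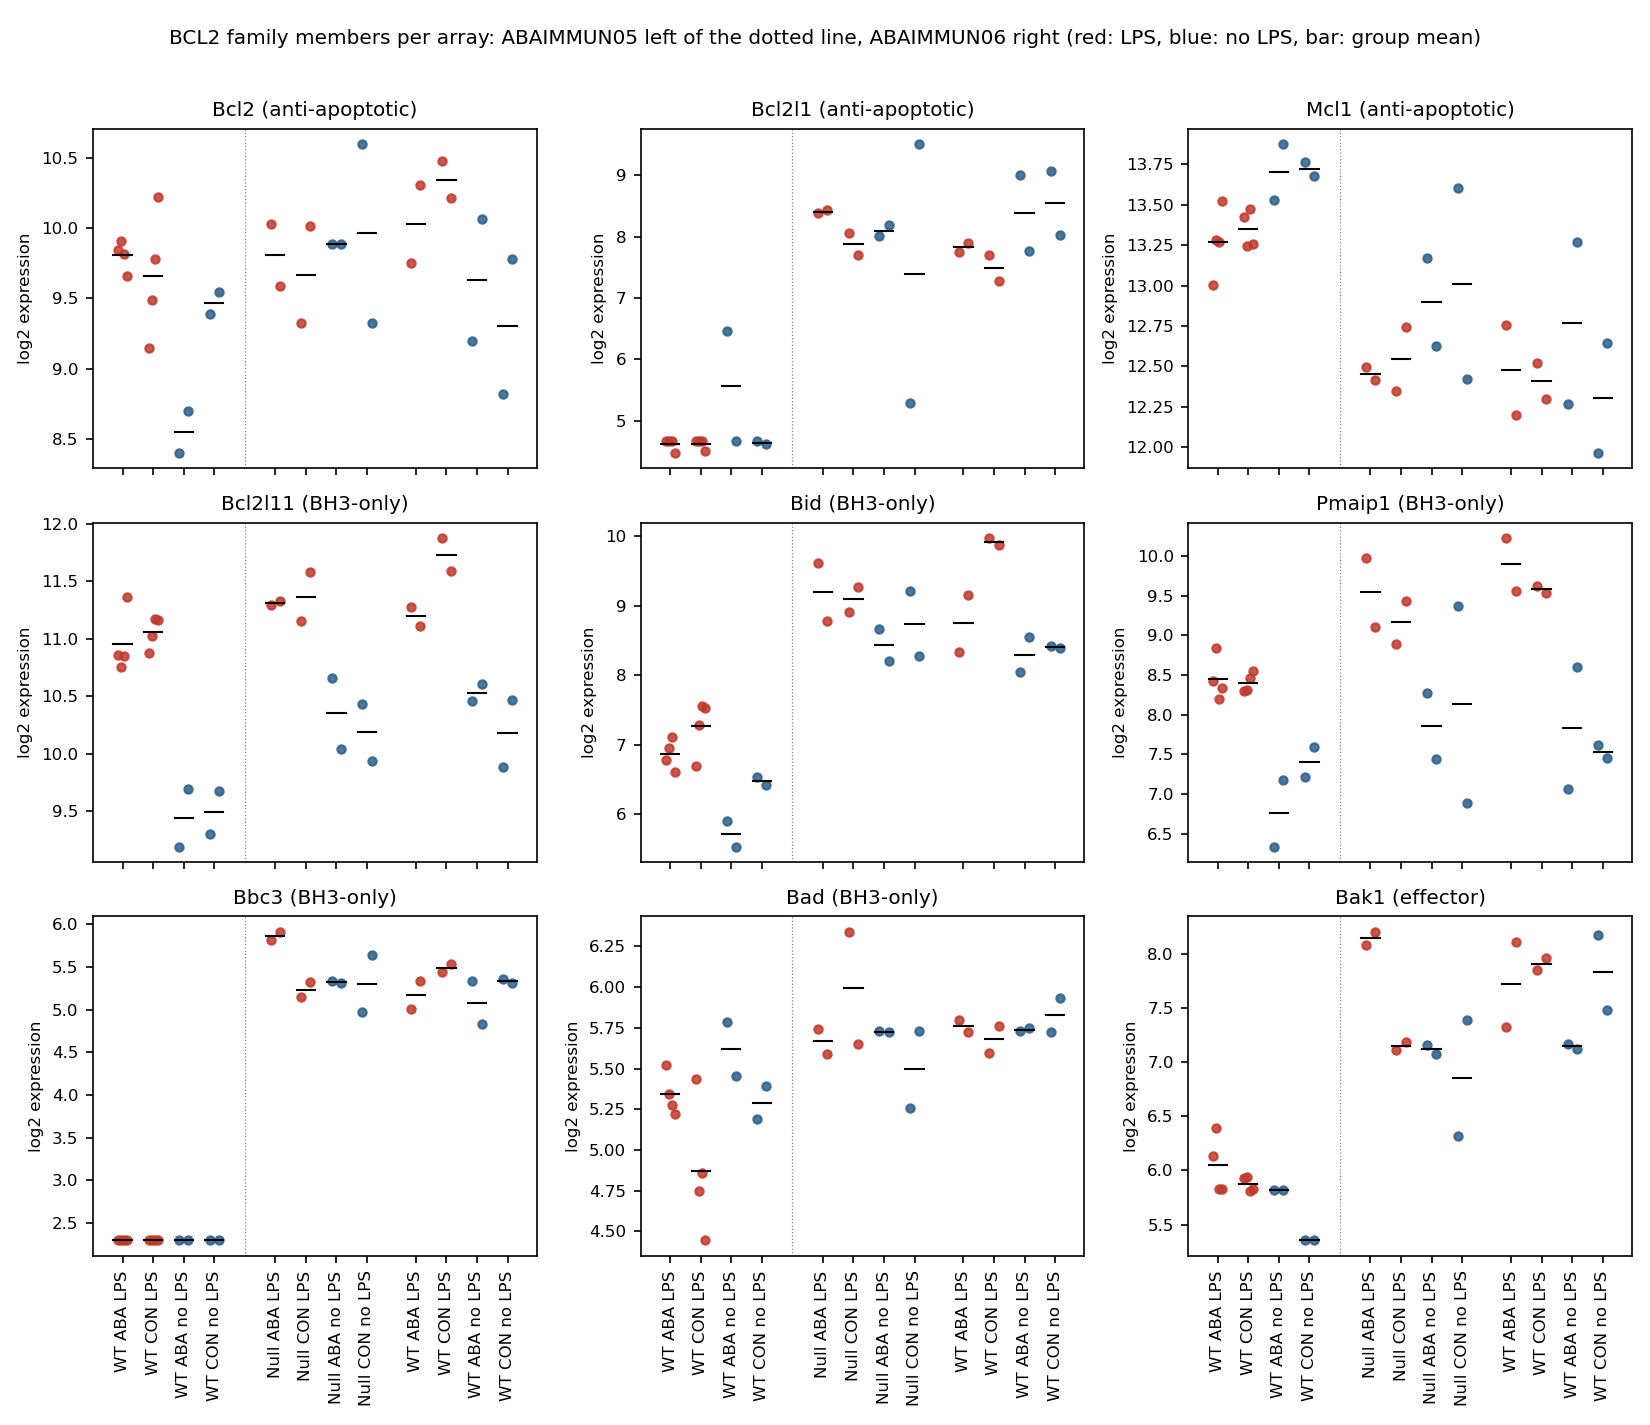
Log2 expression (y axis) of the 9 measured BCL2 family genes on each of 28 arrays, by group (x axis), with ABAIMMUN05 left of the dotted line and ABAIMMUN06 right of it; red points are LPS arrays, blue points are arrays without LPS and bars are group means. Bcl2l11 is higher on every LPS array than on any array without LPS of the same experiment and genotype, whereas Bbc3 sits at 2.29 on all 12 ABAIMMUN05 arrays.

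Bcl2l11 encodes BIM, the BH3-only protein that ends lymphocyte and neutrophil lifespan, and lies at chr2:128126038-128162547 (GRCm38.p6). In ABAIMMUN05 it read 10.86, 10.75, 10.85 and 11.36 on ABA LPS arrays and 10.88, 11.02, 11.17 and 11.16 on CON LPS arrays, against 9.19 and 9.70 on ABA and 9.31 and 9.67 on CON arrays without LPS. In wild-type mice of ABAIMMUN06 it read 11.28 and 11.11 with ABA and LPS and 11.88 and 11.59 with CON and LPS, against 10.46 and 10.60 with ABA and 9.89 and 10.47 with CON in the absence of LPS. The LPS and no LPS arrays did not overlap in either experiment. The change was 1.36 ± 0.12 (SE; adjusted p = 6.55e-07), and it was 1.54 within ABAIMMUN05 (adjusted p = 9.95e-05; 27.1% of genes called) and 1.11 within wild-type mice of ABAIMMUN06 (adjusted p = 0.0305; 7.28% called).

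Pmaip1 encodes NOXA, a BH3-only partner of MCL1 and a p53 target. With LPS it read 8.42, 8.84, 8.20 and 8.34 (ABA) and 8.29, 8.31, 8.46 and 8.55 (CON) in ABAIMMUN05, against 6.34 and 7.17 (ABA) and 7.22 and 7.59 (CON) without it. Wild-type mice of ABAIMMUN06 gave 10.23 and 9.56 (ABA) and 9.63 and 9.54 (CON) with LPS, against 7.06 and 8.61 (ABA) and 7.61 and 7.45 (CON) without. Every LPS array was above every array without LPS of its experiment. The change of 1.65 ± 0.21 (SE; adjusted p = 2.13e-05) was 1.35 within ABAIMMUN05 (adjusted p = 0.000617) and 2.06 within ABAIMMUN06, where it narrowly missed the threshold (adjusted p = 0.0504).

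Bid, at chr6:120893119-120917062 (GRCm38.p6), encodes the BH3-only protein that caspase-8 cleaves to link death receptors to mitochondria. Its ABAIMMUN05 values were 6.79, 6.95, 7.12 and 6.60 (ABA) and 6.70, 7.29, 7.55 and 7.53 (CON) with LPS, against 5.91 and 5.54 (ABA) and 6.53 and 6.42 (CON) without. Those of ABAIMMUN06 wild-type mice were 8.34 and 9.15 (ABA) and 9.97 and 9.87 (CON) with LPS, against 8.04 and 8.54 (ABA) and 8.41 and 8.39 (CON) without. The groups were apart in ABAIMMUN05 and overlapped in ABAIMMUN06 through the ABA LPS array at 8.34. The change was 0.97 ± 0.15 (SE; adjusted p = 0.000192), with 0.97 within ABAIMMUN05 (adjusted p = 0.00355) and 0.98 within ABAIMMUN06 (adjusted p = 0.0704).

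The remaining BH3-only genes did not pass. Bad, whose protein is held inactive by survival kinases, read 4.44 to 5.52 with LPS against 5.19 to 5.79 without it in ABAIMMUN05, and 5.59 to 5.80 against 5.72 to 5.93 in wild-type mice of ABAIMMUN06. Its change was -0.23 ± 0.11 (SE; adjusted p = 0.150; 95% interval -0.47 to 0.02). Bbc3, the p53 target that encodes PUMA, was listed at the floor of 2.29 on all 12 ABAIMMUN05 arrays, so only ABAIMMUN06 carries a measurement. There it read 5.01 to 5.53 with LPS against 4.83 to 5.36 without it in wild-type mice, a change of 0.12 (adjusted p = 0.640 within ABAIMMUN06).

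Among the survival genes, Bcl2 was the one that rose. It lies at chr1:106538176-106714290 (GRCm38.p6), and its protein keeps naive lymphocytes alive. In ABAIMMUN05 it read 9.84, 9.91, 9.82 and 9.66 (ABA) and 9.15, 9.49, 9.78 and 10.22 (CON) with LPS, against 8.40 and 8.70 (ABA) and 9.39 and 9.54 (CON) without. In wild-type mice of ABAIMMUN06 it read 9.75 and 10.30 (ABA) and 10.48 and 10.21 (CON) with LPS, against 9.20 and 10.07 (ABA) and 8.82 and 9.78 (CON) without. The LPS and no LPS arrays overlapped in both experiments. The change was 0.72 ± 0.19 (SE; adjusted p = 0.00876), at 0.72 within ABAIMMUN05 (adjusted p = 0.0149) and 0.72 within ABAIMMUN06 (adjusted p = 0.252).

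Bcl2l1 stood just outside the threshold, in the other direction. It lies at chr2:152758732-152833803 (GRCm38.p6). In ABAIMMUN05 it held the value 4.67 on most arrays: the LPS arrays read 4.67, 4.67, 4.67 and 4.48 (ABA) and 4.67, 4.67, 4.67 and 4.50 (CON), against 6.46 and 4.67 (ABA) and 4.67 and 4.61 (CON) without LPS. One ABA array without LPS thus carried the difference there. In wild-type mice of ABAIMMUN06 it read 7.75 and 7.90 (ABA) and 7.69 and 7.28 (CON) with LPS, against 8.997 and 7.76 (ABA) and 9.07 and 8.03 (CON) without, and 1 ABA LPS array, at 7.90, reached into the range without LPS. The change was -0.62 ± 0.23 (SE; adjusted p = 0.0506; 95% interval -1.11 to -0.13), and without the ABAIMMUN05 ABA array that read 6.46 it was -0.40 (adjusted p = 0.132). It passed without the partner of that array (-0.77, adjusted p = 0.0187), without WT ABA no LPS replicate 2 of ABAIMMUN06 (-0.74, adjusted p = 0.0162) and without either ABAIMMUN05 CON array lacking LPS (-0.69 and -0.70, adjusted p = 0.0482 and 0.0438). It also passed under quantile normalisation (-0.68, adjusted p = 0.0494), median centring (-0.68, adjusted p = 0.0324), a stricter filter (adjusted p = 0.0351) and a trended, robust variance (adjusted p = 0.0488).

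Mcl1, at chr3:95656944-95663179 (GRCm38.p6), encodes a short-lived survival protein on which neutrophils and lymphocytes rely. In ABAIMMUN05 it read 13.00, 13.28, 13.27 and 13.52 (ABA) and 13.42, 13.24, 13.47 and 13.26 (CON) with LPS, against 13.53 and 13.87 (ABA) and 13.76 and 13.68 (CON) without, so every LPS array was lower. In wild-type mice of ABAIMMUN06 the LPS arrays read 12.76 and 12.20 (ABA) and 12.52 and 12.30 (CON), against 12.27 and 13.27 (ABA) and 11.97 and 12.65 (CON) without LPS, and the groups overlapped. The change over both experiments was -0.27 ± 0.14 (SE; adjusted p = 0.155; 95% interval -0.56 to 0.02). It was -0.40 within ABAIMMUN05 (adjusted p = 0.0188) and -0.09 within ABAIMMUN06 (adjusted p = 0.900). Over both experiments it passed under quantile normalisation (-0.40, adjusted p = 0.0228), with array weights (-0.39, adjusted p = 0.0242) and without WT CON no LPS replicate 1 of ABAIMMUN06 (-0.35, adjusted p = 0.0432).

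Bak1, the effector that forms pores in the mitochondrial outer membrane, lies at chr17:27019812-27028627 (GRCm38.p6). Its other probe set, 1425716_s_at, lay within 0.5 of the floor on all 8 wild-type arrays of ABAIMMUN06 and 3 of 12 of ABAIMMUN05. A mean of its probe sets therefore includes values that carry no measurement. Bak1 read 5.81 to 6.40 with LPS against 5.35 to 5.82 without it in ABAIMMUN05, and 7.33 to 8.11 against 7.13 to 8.18 in wild-type mice of ABAIMMUN06. Its change was 0.35 ± 0.14 (SE; adjusted p = 0.0766; 95% interval 0.05 to 0.66), and it passed within ABAIMMUN05 (0.37, adjusted p = 0.0242) but not within ABAIMMUN06 (0.32, adjusted p = 0.468). Over both it passed with the mean of all its probe sets (0.32, adjusted p = 0.0154), with array weights (0.38, adjusted p = 0.0208), and without ABAIMMUN06 WT ABA LPS replicate 1 (0.43, adjusted p = 0.0259) or WT CON no LPS replicate 1 (0.45, adjusted p = 0.0111).

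**Figure D2:**
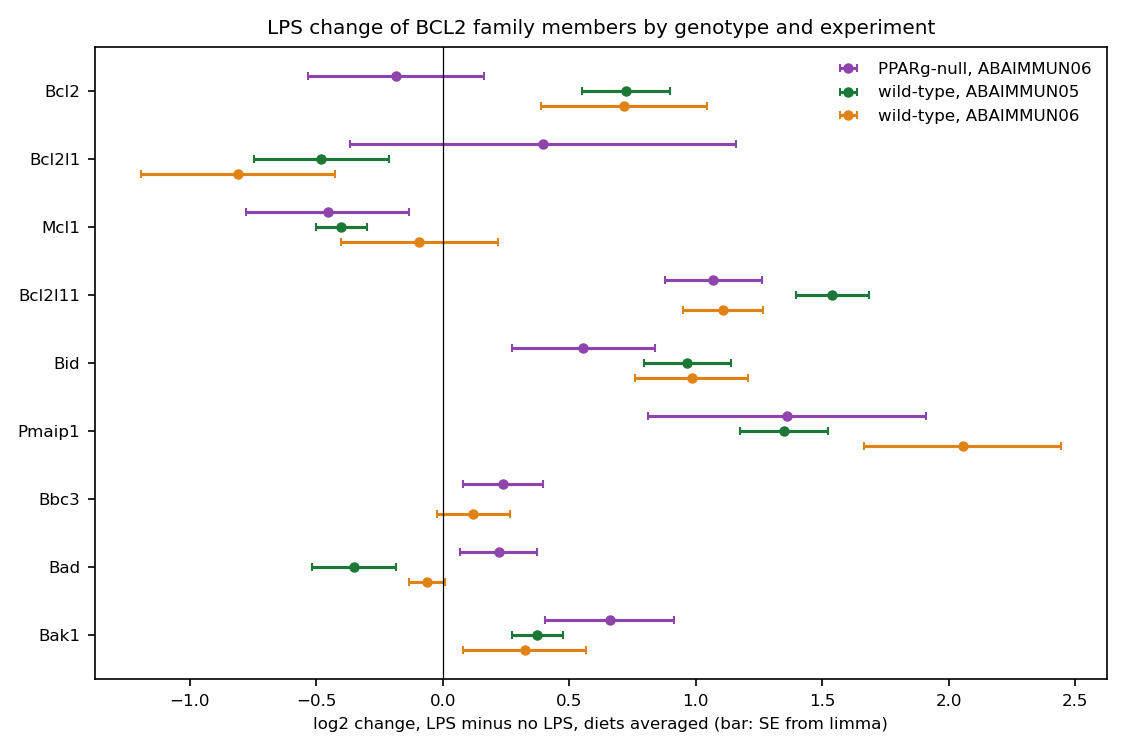
Log2 change, LPS minus no LPS with diets averaged (x axis), of each member in PPARg-null mice of ABAIMMUN06 (purple) and in wild-type mice of ABAIMMUN05 (green) and ABAIMMUN06 (orange); points are limma estimates and bars their SE, and Bbc3 has no ABAIMMUN05 value. Bcl2l11 lies between 1.07 and 1.54 in the 3 sets, and Bcl2 reads -0.19 in null mice and 0.72 in both wild-type sets.

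The probe sets of one gene did not always read alike. In each experiment 4 of the 5 Bcl2 probe sets read clear of the floor on every wild-type array, and these were higher with LPS by 0.47 to 1.32 in ABAIMMUN05 and by 0.72 to 1.17 in ABAIMMUN06. Probe set 1422938_at averaged 10.4 in ABAIMMUN05 and 2.44 in wild-type mice of ABAIMMUN06, while 1437122_at averaged 2.71 and 8.22, so which probe sets carry signal differed between the experiments. The same held for Bcl2l11, where 1435449_at and 1456006_at lay within 0.5 of the floor on all 12 ABAIMMUN05 arrays but differed by 1.55 and 1.81 with LPS in wild-type mice of ABAIMMUN06. The second well-measured Bcl2l11 probe set, 1435448_at, differed by 1.77 and 1.49, with no overlap of LPS and no LPS arrays in either experiment. The 6 Mcl1 probe sets disagreed in direction, from -0.50 to 0.29 in ABAIMMUN05 and from -0.09 to 0.65 in wild-type mice of ABAIMMUN06, and 1416881_at was higher with LPS in both. In null mice the Bcl2l1 probe set used differed by 0.40 with LPS. There 1420887_a_at and 1426191_a_at, averaging 2.95 and 2.53, differed by -0.34 and -0.35, and 1426050_at was at the floor. For Bad in null mice the probe set used differed by 0.22 and 1416583_at by -0.21.

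**Figure D3:**
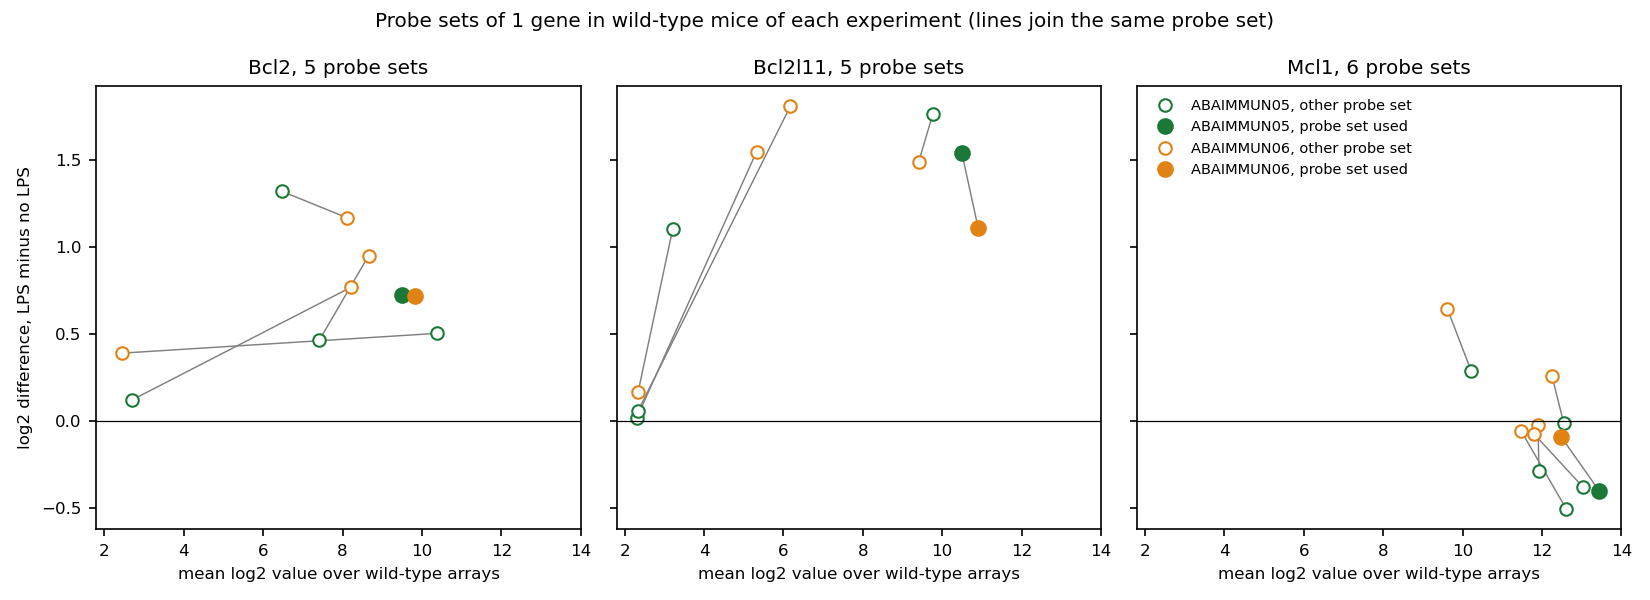
Log2 difference, LPS minus no LPS (y axis), against mean log2 value over wild-type arrays (x axis) for each probe set of Bcl2, Bcl2l11 and Mcl1; green is ABAIMMUN05, orange is ABAIMMUN06, filled points are the probe sets used, and lines join one probe set. Points at the left edge are near the floor and carry no measurement, the Bcl2 and Bcl2l11 probe sets clear of it lie above 0, and those of Mcl1 lie on both sides, from -0.50 to 0.65.

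The LPS response was then read within each diet. On the ABA diet 4 members rose (15.3% of genes called, 8.94% higher and 6.33% lower): Pmaip1 by 1.81 ± 0.29, Bcl2l11 by 1.15 ± 0.17, Bcl2 by 0.86 ± 0.27 (adjusted p = 0.0385) and Bid by 0.86 ± 0.22 (SE). On the control diet 3 members rose (18.1% called, 10.6% higher and 7.5% lower): Bcl2l11 by 1.56 ± 0.17, Pmaip1 by 1.50 ± 0.29 and Bid by 1.09 ± 0.22 (SE). Bcl2 changed there by 0.58 ± 0.27 (adjusted p = 0.148). The test of the difference between diets called 0 of the 9 members, with 0 at an unadjusted p under 0.05, and 0 of all genes (561 at an unadjusted p under 0.05). For Bcl2 that difference was 0.28 ± 0.37 (SE; 95% interval -0.51 to 1.08), and for Bcl2l11 -0.40 ± 0.25 (-0.92 to 0.12). The experiments did not read alike here: the Bcl2 difference was 1.06 within ABAIMMUN05 (adjusted p = 0.496) and -0.65 within ABAIMMUN06 (adjusted p = 0.926). For Bcl2l11 it was -0.06 and -0.89 (adjusted p = 1 and 0.782), and for Bid 0.35 and -1.06 (adjusted p = 0.875 and 0.858). The Bcl2 call on the ABA diet was the least stable: it read 1.26 within ABAIMMUN05 (adjusted p = 0.0102) and 0.39 within ABAIMMUN06 (adjusted p = 0.753), while on the control diet Bcl2 read 0.19 and 1.04 (adjusted p = 0.740 and 0.295). On the ABA diet it was 0.80 (adjusted p = 0.0814) with the replicate number as a block.

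No member passed between diets. In wild-type mice with LPS, ABA against control called 0 of 9 members, where 0.0149% of genes were called (684 at an unadjusted p under 0.05). The smallest unadjusted p belonged to Bid, and Bid and Bad were the 2 members under 0.05 before adjustment. Bid averaged lower on ABA LPS arrays than on CON LPS arrays, by 0.40 in ABAIMMUN05 and by 1.17 in ABAIMMUN06, and the difference over both was -0.66 ± 0.19 (SE; adjusted p = 0.908; 95% interval -1.07 to -0.25). Xist, the RNA of the inactive X chromosome, split the same ABAIMMUN06 wild-type arrays: it read 2.25 on both ABA LPS arrays, 12.5 and 12.2 on the CON LPS arrays, 12.6 and 2.24 on ABA arrays without LPS, and 2.25 and 2.24 on CON arrays without LPS. High or low Xist and diet with LPS, and likewise the LPS change on the control diet, therefore cannot be told apart within wild-type mice of ABAIMMUN06. All 12 ABAIMMUN05 arrays had high Xist (10.4 or above), and with a term for high Xist the Bid difference over both experiments was -0.56 (adjusted p = 1). Bad differed by 0.34 ± 0.14 (SE; adjusted p = 0.944). Bcl2l11 differed by -0.25 (interval -0.58 to 0.08), Bcl2 by -0.01 (-0.51 to 0.50) and Pmaip1 by 0.13 (-0.42 to 0.69). Without LPS 0 of 9 were called (0.00743% of genes), and 0 members but 788 genes had an unadjusted p under 0.05. That comparison pools experiments that differ: within ABAIMMUN05 Bcl2, Bak1, Bid and Pmaip1 were under 0.05 before adjustment, at -0.91, 0.47, -0.75 and -0.65, with adjusted p from 0.274 to 0.543. Within ABAIMMUN06 the same genes read 0.33, -0.68, -0.11 and 0.30, so 3 of the 4 had the opposite sign.

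Null mice shared the Bcl2l11 response. With LPS it read 11.30 and 11.33 (ABA) and 11.15 and 11.58 (CON), against 10.66 and 10.04 (ABA) and 10.43 and 9.94 (CON) without, with no overlap. It rose by 1.07 ± 0.19 (SE; adjusted p = 0.0115), the 1 member called of 9, where 7.4% of 13378 genes were called, 3.95% higher and 3.45% lower. Under median centring the median change of all genes here was 0.10 in place of -0.01, and 809 genes were called higher and 463 lower in place of 528 and 462. The members' median was 0.40 as deposited.

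Pmaip1 in null mice read 9.98 and 9.10 (ABA) and 8.89 and 9.43 (CON) with LPS, against 8.27 and 7.43 (ABA) and 9.37 and 6.89 (CON) without. The CON array without LPS at 9.37 lay among the LPS arrays. The change was 1.36 ± 0.55 (SE; adjusted p = 0.185). It was 1.98 without that array, replicate 1, and smaller than 1.36 without its partner at 6.89. Either omission leaves 1 array in the group. Bcl2 read 10.03 and 9.59 (ABA) and 9.32 and 10.01 (CON) with LPS, against 9.89 and 9.89 (ABA) and 10.60 and 9.33 (CON) without, a change of -0.19 ± 0.35 (SE; 95% interval -0.97 to 0.60). It turned to 0.13 without CON no LPS replicate 1 and was -0.50 without replicate 2.

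The same pair of null CON arrays without LPS set the value of Bcl2l1, which read 5.28 on replicate 1 and 9.51 on replicate 2, against 7.70 to 8.44 on the null arrays with LPS. Its change was 0.40 ± 0.76 (SE; 95% interval -1.33 to 2.12). Without replicate 1 it was -0.66 (adjusted p = 0.289), and without replicate 2 it was 1.45 and passed (adjusted p = 0.0324). Bak1 (0.66 ± 0.25) passed without replicate 2 (0.93, adjusted p = 0.0300), and read 0.39 without replicate 1. Bid changed by 0.56 ± 0.28 (adjusted p = 0.292), Mcl1 by -0.46 ± 0.32, Bbc3 by 0.24 ± 0.16 and Bad by 0.22 ± 0.15 (SE). Without replicate 1 Bid, Mcl1, Bbc3 and Bad read 0.79, -0.16, 0.07 and 0.10, and without replicate 2 they read 0.33, -0.75, 0.40 and 0.34, and none of them passed.

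Genotype itself called no member. Null against wild-type mice gave 0 of 9 with LPS (0.0299% of genes called, 0.0224% higher, 605 at an unadjusted p under 0.05) and 0 of 9 without LPS (0.00747% called, 283 at an unadjusted p under 0.05). The LPS response did not pass a test of difference between genotypes for any member (0 of 9 called, 0.0299% of genes called, 0.0224% higher, 597 at an unadjusted p under 0.05). For Bcl2l11 that difference was -0.04 ± 0.27 (SE; 95% interval -0.65 to 0.57), for Pmaip1 -0.69 ± 0.78 (-2.45 to 1.06) and for Bcl2 -0.90 ± 0.49 (-2.02 to 0.21). Without null CON no LPS replicate 1 these were 0.08, -0.07 and -0.59, and without replicate 2 they were -0.16, -1.31 and -1.22. Without null ABA LPS replicate 1, the array with the highest 3′ minus 5′ control differences of ABAIMMUN06, they were -0.03, -0.91 and -1.01. Differences of over 1 log2 unit thus lie within the intervals for Pmaip1 and Bcl2. They also lie within those for Bcl2l1 (1.21, interval -1.23 to 3.64), Bid (-1.33 to 0.47), Mcl1 (-1.39 to 0.67) and Bak1 (-0.48 to 1.15). The intervals for Bcl2l11, Bad and Bbc3 did not reach that size. ABA against control in null mice called 0 of 9 members and 0% of genes (419 at an unadjusted p under 0.05). Bak1 was the 1 member under 0.05 before adjustment there (0.63 ± 0.25 SE, adjusted p = 1). The test of whether the diet difference depends on genotype called 0 of 9 members and 0% of genes (526 at an unadjusted p under 0.05), with Bak1 at 1.07 ± 0.36 and Bbc3 at 0.61 ± 0.22 (SE) under 0.05 before adjustment, both with adjusted p = 1.

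Around the family, other genes of cell death moved in both directions with LPS in wild-type mice. The death receptor list had 5 of 8 tested genes higher and 0 lower, with a median change of 0.76, where 16.7% of all genes were called higher and 14.1% lower. The ligand Tnfsf10 (TRAIL) rose by 2.04 ± 0.19, the receptor Fas by 2.14 ± 0.33 and the caspase-8 inhibitor Cflar by 1.26 ± 0.14 (SE; adjusted p = 6.45e-07, 0.000133 and 6.74e-06). Of 8 tested inhibitors of apoptosis, the ubiquitin ligases Birc3 (1.55 ± 0.19) and Birc2 (1.54 ± 0.13) rose, while the mitotic protein survivin, Birc5 (-2.43 ± 0.46), and Naip5 (-0.88 ± 0.31), a sensor of bacterial flagellin, fell.

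Of 13 tested apoptosome and caspase genes, 3 rose and 3 fell in wild-type mice. For this list and the wild-type lists that follow, 16.7% of all genes were called higher and 14.1% lower. The initiator Casp8 (0.82 ± 0.14), Apaf1 (0.96 ± 0.23), the scaffold of the apoptosome, and Cycs (0.58 ± 0.16), its cytochrome c, were higher, although Cycs lost its call under quantile normalisation. Casp6 (-0.97 ± 0.24), the DNA repair enzyme gene Parp1 (-0.45 ± 0.14) and Casp9 (-0.43 ± 0.15), the apoptosome's initiator caspase, were lower. A list of other BCL2-related genes, which also holds the channel genes Vdac1 and Vdac2 and the fission genes Mff and Fis1 of the outer mitochondrial membrane, gave 3 higher and 4 lower of 14. Bcl2l14 (2.60 ± 0.29), the channel gene Vdac2 (0.66 ± 0.09) and the mitophagy receptor Bnip3 (1.04 ± 0.17) rose, and Mff (-0.52 ± 0.10), which recruits the mitochondrial fission machinery, Bcl2l13 (-0.94 ± 0.24) and Vdac1 (-0.41 ± 0.11) fell. The p53 and FOXO list had 1 higher and 1 lower of 11: Cdkn1a (3.46 ± 0.22), the cell cycle inhibitor p21, rose, and Foxo3 (-1.35 ± 0.26), which encodes a forkhead factor, fell. In null mice, where 3.95% of genes were called higher and 3.45% lower, Tnfsf10 (2.48 ± 0.27), Birc2 (1.59 ± 0.26), Bcl2l14 (1.62 ± 0.18) and Cdkn1a (2.26 ± 0.35) rose and Casp6 (-2.02 ± 0.45) and Casp9 (-0.81 ± 0.15) fell (SE).

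**Figure D4:**
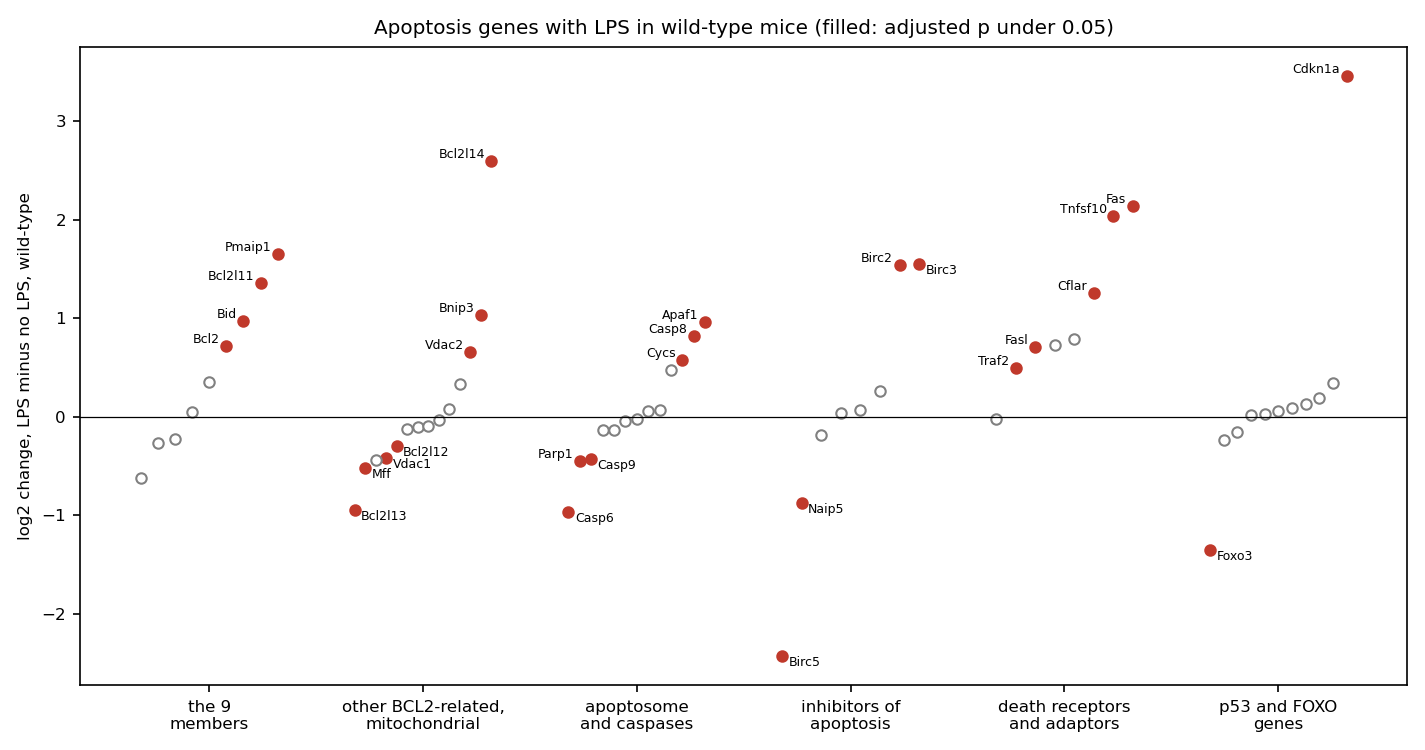
Log2 change, LPS minus no LPS in wild-type mice with diets averaged (y axis), for each tested gene of the 9 members and 5 lists (x axis); filled points have an adjusted p under 0.05 and are named, open points do not. All 5 called death receptor genes are higher, up to 2.14 for Fas, and the inhibitors of apoptosis hold both Birc3 at 1.55 and Birc5 at -2.43.

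Cell type markers moved with LPS in the same samples. In null mice 0 of 10 erythroid markers passed (median change -1.59). All 10 fell in wild-type mice (median -3.85), as did 7 of 8 cycling cell markers (median -2.34), 5 of 9 macrophage, 4 of 9 B cell and 3 of 9 T cell markers, while 1 macrophage marker rose. Neutrophil markers gave 3 higher and 0 lower of 9 in null mice, and 2 higher and 1 lower of 9 in wild-type mice. The wild-type neutrophil mean moved in opposite directions in the experiments, with medians of 6.91 with LPS against 7.82 without it in ABAIMMUN05 and of 8.62 against 7.12 in ABAIMMUN06. In null mice the medians were 8.52 with LPS and 7.17 without. Over all genes 3.95% were called higher and 3.45% lower in null mice, and 16.7% higher and 14.1% lower in wild-type mice. The wild-type counts come from 20 arrays of 2 experiments. Those of null mice come from ABAIMMUN06 alone, so the marker counts do not compare the genotypes. In bulk RNA, fewer cells of a type and less RNA per cell cannot be told apart. The mean of the 10 erythroid markers was 4.93 to 7.53 with LPS against 6.30 to 11.2 without it in ABAIMMUN05, where up to 3 of them lay within 0.5 of the floor on an array. It was 7.48 to 10.6 with LPS against 7.44 to 12.5 without it in null mice, and 5.46 to 7.24 with LPS against 9.91 to 12.8 without it in wild-type mice of ABAIMMUN06.

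Some arrays on which members stood apart from their partner also differed from it in the erythroid markers. Null CON no LPS replicate 1, with Bcl2l1 at 5.28, Bcl2 at 10.60 and Pmaip1 at 9.37, had an erythroid mean of 7.44, and replicate 2, with 9.51, 9.33 and 6.89 for these genes, had 12.5. The ABAIMMUN05 ABA array without LPS that read 6.46 for Bcl2l1 had an erythroid mean of 11.2, and its partner at 4.67 had 6.30. In ABAIMMUN06, WT ABA no LPS replicate 1 had 12.8 with Bcl2l1 at 8.997 and Pmaip1 at 7.06, and replicate 2 had 9.91 with 7.76 and 8.61. Wild-type LPS arrays of ABAIMMUN06 had erythroid means of 5.46 to 7.24 and read 7.28 to 7.90 for Bcl2l1. The part of the erythroid and neutrophil markers in the members' changes was not tested.

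Pancreas markers also differed between arrays of ABAIMMUN06. Cpa1, a pancreatic digestive enzyme gene, read 13.5 on ABA no LPS replicate 2 and 9.67 on CON no LPS replicate 2 of the null mice and was at the floor on the other 14 ABAIMMUN06 arrays. The mean of 7 pancreas markers was 3.26 to 3.61 on null arrays with LPS and 3.57 to 13.2 on those without, so the ranges overlapped. On wild-type arrays of ABAIMMUN06 it was 2.89 to 3.33 with LPS and 3.78 to 3.87 without, where the floor was 2.24. In ABAIMMUN05 Cpa1 was at 6.19 on 1 CON LPS array and 9.11 on 1 CON no LPS array. Leaving out these 4 arrays left 1 array in each null group without LPS, and the CON one was replicate 1. On that array Pmaip1 read 9.37, Bcl2 10.60 and Bcl2l1 5.28. In this fit Bcl2l11 changed by 0.79 in null mice. Pmaip1 changed by 0.53, Bcl2 by -0.50, Bid by 0.21, Bcl2l1 by 1.50 and Mcl1 by -0.89. Pancreas markers and the other differences of these arrays cannot be told apart in this fit.

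**Figure D5:**
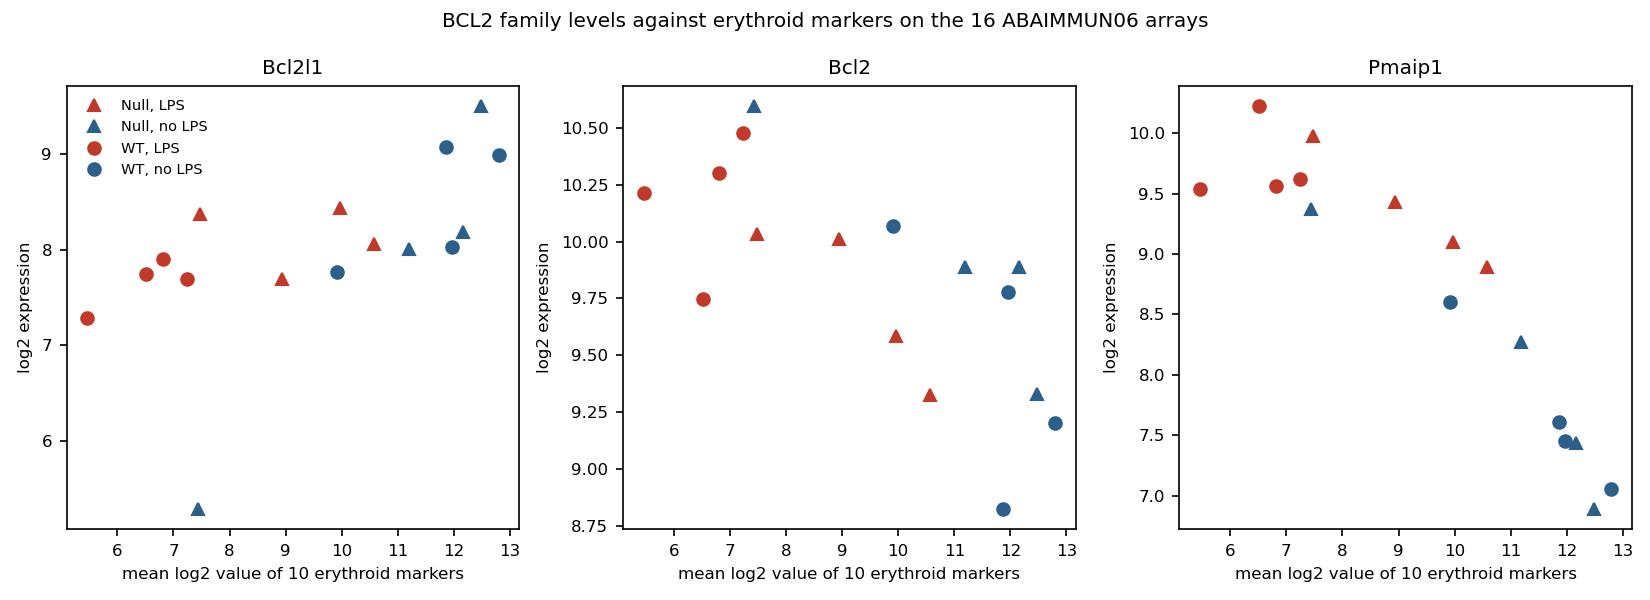
Log2 expression (y axis) of Bcl2l1, Bcl2 and Pmaip1 against the mean log2 value of 10 erythroid markers (x axis) on the 16 ABAIMMUN06 arrays; triangles are null and circles wild-type mice, red is LPS and blue is no LPS. The null array without LPS at an erythroid mean of 7.44 lies with the LPS arrays on the x axis and has the lowest Bcl2l1 value, 5.28.

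Likeness to a member was measured as Pearson's r over the 28 arrays after centring each gene within its experiment, among 12781 other genes tested in both fits. The points share arrays and the LPS contrast, so r is a description. Bcl2l11 was most like Socs2 (0.95), Zfp281 (0.94) and Gbp2 (0.94), Pmaip1 like Diaph2 (0.96), Etv3 (0.96) and Birc2 (0.95), Bid like Phlpp1 (0.88), Znhit6 (0.87) and Cxcr5 (0.87), and Bcl2 like Ddx50 (0.88), Phax (0.87) and Arid5b (0.86). Between members, r was highest for Bcl2l11 with Pmaip1 (0.82) and with Bid (0.75).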

How the data were processed

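Biotin-labelled spleen RNA of 28 samples was measured on mouse arrays. The deposited table holds the authors' log2 values for 45101 probe sets. Per the submitters' processing notes GCRMA and limma were used, with no versions or roles given. The log2 scale was read from the range of the values. Scanner files were not used here. In the platform annotation 34958 probe sets name 1 gene, 932 several and 9211 none, and the last 2 kinds were left out. Groups were taken from the labels and the experiment from the titles.

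A gene was represented by its probe set of highest mean and entered the test when at least as many arrays as the smallest condition holds had it over their 40th percentile. The contrasts came from limma 3.58.1 (R 4.3.3), using lmFit and eBayes, and p-values were adjusted by Benjamini-Hochberg, with calls at 0.05. Wild-type contrasts used 20 arrays with experiment as a term (15 residual degrees of freedom), and contrasts with null mice the 16 arrays of ABAIMMUN06 (8 residual). The fits were tested on simulated data. Changes carry the SE from limma. The prior degrees of freedom were 0.772 and 0.981, so variances were shrunk little. Figures used matplotlib 3.10.9.

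All 9 measured members are described. From each other list up to 3 rising and 3 falling genes with the smallest adjusted p are named, and Pparg, Cpa1 and Xist beside them. The members and lists were chosen with earlier results of these data known. The alternatives tried were quantile normalisation, median centring, 2 other filters, array weights, a trended and robust variance, a gene's probe sets averaged, the replicate number as a block, a single fit over all 28 arrays, each experiment alone, a term for high Xist, leaving out 4 arrays with Cpa1, and leaving out each array in turn. Same-numbered arrays deviated together in 4 of 14 pairs of ABAIMMUN05 and 20 of 56 of ABAIMMUN06 (r over 0.1), so the numbers were not taken as pairs.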

Additional observations from a re-analysis of the deposited data

Results flagged for a closer look

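Single arrays stood apart from the others of their group for 2 members, in 3 of the 16 combinations of member and group of 4 arrays whose values were not all equal. Chance alone gives such a gap in about 1 group in 20 where values are not tied. That rate does not apply to Bcl2l1, which read 4.48 on 1 ABAIMMUN05 wild-type ABA LPS array and 4.50 on 1 CON LPS array of that experiment. The other arrays of both groups read 4.67, a value that 7 of the 12 ABAIMMUN05 arrays share, so the tie fixes the gap. Bcl2l11 read 11.4 on 1 ABAIMMUN05 wild-type ABA LPS array, above the 10.8 to 10.9 of the other 3.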

How the results depend on the processing

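Of 12 member results past the threshold, recomputed under 390 combinations of result and alternative, 365 kept direction and threshold, 25 lost the threshold and 0 reversed. Of the 25, 9 came from the 8 wild-type arrays of ABAIMMUN06 alone. There the ABA diet had 0 members called, the control diet 1 and the averaged diets 1, against 4, 3 and 4 over both experiments. With diets averaged, 7.28% of all genes were called there, against 30.9% over both experiments. Array weights left 2 calls on the ABA diet, and 1 fit of all 28 arrays gave 2 in null mice by adding Pmaip1 (adjusted p = 0.0380). The cause was not tested. The share of all genes called was not set beside the counts with array weights, 1 fit of all 28 arrays or 1 array left out. Those counts therefore do not set the family apart from all genes. With 1 array left out, LPS called 4 to 6 members in wild-type mice with diets averaged, 3 to 5 on the ABA diet, 3 on the control diet and 1 to 3 in null mice, and 0 in every other comparison. The 6 came without ABAIMMUN06 WT CON no LPS replicate 1, by adding Bak1 and Mcl1. The null count was 2 without null CON no LPS replicate 1 and 3 without replicate 2.

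The Bcl2 call on the ABA diet was lost under 14 of 33 alternatives, among them quantile normalisation, no filter, array weights and leaving out any of the 4 ABA LPS arrays or either ABA no LPS array of ABAIMMUN05, or WT ABA no LPS replicate 1 or WT ABA LPS replicate 2 of ABAIMMUN06 (0.39 to 1.26 over all 33). With the replicate number as a block it was 0.80 (adjusted p = 0.0814), and no other member call of the table changed under the block. Bid lost its call on the ABA diet with the mean of all probe sets and with array weights, and on the control diet within either experiment. That mean includes 1447873_x_at and 1448560_at, which lay within 0.5 of the floor on 11 and 12 of the 12 ABAIMMUN05 arrays. The 3 Bcl2l11 results with diets averaged or on the control diet kept their calls under every alternative run.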
